A study of Homo sapiens with 8 samples.

Results

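Kinesins are the motor proteins that walk along microtubules, and the genes described here are the human kinesin superfamily (KIF) genes together with the kinesin light chains and the kinesin-associated protein KIFAP3. Members were protein-coding genes whose symbol is KIF with a number and at most a letter from A to C, or is KIFC1, KIFC2, KIFC3, KIFAP3, KLC1, KLC2 or KLC4. This gave 46 of the 60651 genes listed, and 33 of them had a mean of at least 1 TPM (a footprint level divided by transcript length and scaled so that every library has the same total) over the 8 libraries and were tested, among 11778 genes tested in all. The libraries are ribosome profiles, which sequence the mRNA pieces shielded by translating ribosomes, of IMR32, a human neuroblastoma cell line with amplified MYCN labelled as wild type. In 4 libraries the cells had received CR31B, a silvestrol analog that acts on the RNA helicase eIF4A, and in the other 4 they had received the solvent DMSO at 0.1%. All 8 were harvested after 6 h with cycloheximide added beforehand, and all come from 1 cell line; the CR31B dose is not given in the sources used here. Footprint levels combine the amount of an mRNA with its ribosome load, and total RNA was not analysed here, so these 2 quantities cannot be told apart.

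A kinesin couples ATP hydrolysis in its motor domain to steps along a microtubule, and the rest of the protein binds cargo, a partner motor or another microtubule. Mitotic kinesins build and shorten the spindle, move chromosomes and prepare the midzone for cytokinesis, whereas transport kinesins carry vesicles, mitochondria and mRNA granules and are best known from axons. Conventional kinesin pairs KIF5 heavy chains with kinesin light chains, and heterotrimeric kinesin-2 pairs KIF3A with KIF3B or KIF3C and, in its classic form, KIFAP3. eIF4A unwinds the 5′ leaders of mRNAs before translation starts, and compounds of the silvestrol class hold it on purine-rich RNA.

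Because of that chemistry, the leaders of the members the results turn on are shown first. Each line gives a 30 nt window of the annotated 5′ leader, 5′ to 3′ in the sense of the mRNA, with its longest uninterrupted run of A and G in capitals. They were read from 1 annotated coding transcript per gene of GENCODE release 29 on GRCh38, and which transcripts these cells used was not tested. KIF11 is included as a leader with a short run.
KIF3C: atccctAGAGGAAGGAGGAGAAGAcagctc
KIFC1: tgccgctAGAGGAGGGGAGGGGtgagaagc
KIF5B: ctcttcgcGAGGAGGAAGAAGGtggccact
KIF5A: ccgctgccgcAGGAGAGAGAcagcgcgccc
KIF14: atgaatgtccAAAGAAGAGcttagggtctt
KIF5C: ggtctgcagccGGAGGGGccggagcggaga
KIF11: ccgggccttgattttttggcGGGGAccgtc
The KIF3C window lies at chr2:25982293-25982322 on the minus strand, that of KIFC1 at chr6:33391605-33391634 on the plus strand, and that of KIF5B at chr10:32056309-32056338 on the minus strand. The window of KIF5A lies at chr12:57550084-57550113 (plus), that of KIF14 at chr1:200618759-200618788 (minus), that of KIF5C at chr2:148875392-148875421 (plus) and that of KIF11 at chr10:92593346-92593375 (plus). The KIF3C run of 18 nt was the longest in the annotated leaders of the 32 tested members that have one, followed by 15 nt in KIFC1 and 14 nt in KIF5B. It occurred in the leaders of 3 of the 4 coding transcripts of KIF3C considered. The runs of KIFC1, KIF5C and KIF14 each occurred in 1 of 2, that of KIF5A in 2 of 2 and that of KIF5B in 1 of 1.

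The subunits of the KIF5 and KIF3 motors are paralogues, so their coding letters are shown at the most conserved place, the P-loop (Walker A motif) that holds ATP. Capitals mark the bases that differ from KIF5B in the line of KIF5C and from KIF3A in the lines of KIF3B and KIF3C.
KIF5B: ggacaaacatcctctgggaagaca
KIF5C: ggGcaGacTtcAtcAggAaaAacC
KIF3A: ggacaaaccggaacaggcaaaact
KIF3B: ggacaaacTggGacaggAaaaacC
KIF3C: ggCcaGacGggCacTggcaaGacC
In these 24 bases KIF5C differed from KIF5B at 8, and KIF3B differed from KIF3A at 4 and KIF3C at 7. None of the coding 28-base stretches of KIF5A, KIF5B, KIF5C, KIF3B or KIF3C occurred in another annotated gene, and 0.290% of those of KIF3A did. Footprints had been selected at 28 to 30 nt, so nearly all coding footprints of these subunits differ from every other annotated gene. Sharing was high for KLC1 (every coding 28-base stretch occurs in a readthrough-type gene on the same strand), KIF27 (48.3%) and KIF4A (32.8%, with its near-copy KIF4B), and the levels of these 3 genes are uncertain for that reason. Exons of 18 tested members overlap another annotated gene, and without a stated strand setting their reads cannot be told apart, but KIF3C, KIF5A, KIF5B, KIF5C, KIF14 and KIF11 are not among them. The P-loop was found in 40 of the 46 members. It was not found in the light chains and KIFAP3, which are not motors, and from KIF26A and KIF26B, whose motor domains are known to be divergent. In 23 tested motors it lay between codons 84 and 160, whereas it lay at codon 410 in KIFC1, whose motor is at the other end, 348 in KIF2C and 313 in KIF2A, whose motors sit in the middle, and 447 in KIF14.

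Between 51.8% and 61.3% of each library's TPM belonged to protein-coding genes, with CR31B replicate 1 at 61.3% and the other CR31B libraries at 51.8% to 52.3%, and the median of all tested genes was 0.029 higher in CR31B on the log2 scale. Read depth is not recoverable from TPM, so no counting error is given. Of 12 markers of sympathoadrenal neuroblastoma, the cell type the label neuroblast implies, 11 reached 1 TPM (TH, tyrosine hydroxylase, did not), and their summed level was 1341 to 1932 TPM under CR31B and 1260 to 1509 TPM under DMSO. No marker of oligodendrocytes, blood cells or epithelium reached 1 TPM, and OLIG2, MOG, CD3E, HBB and CDH1 were listed at 0 in all libraries. Of the 4 astrocyte markers only SLC1A3, a glutamate transporter, did, with list sums of 1.79 to 3.26 TPM under CR31B and 3.99 to 6.54 TPM under DMSO. Of 7 mesenchymal markers 4 did, led by VIM, with list sums of 160 to 195 TPM under CR31B and 140 to 208 TPM under DMSO and PRRX1 listed at 0. The part of these markers in the kinesin results was not tested.

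IMR32 cells translated mitotic and transport kinesins side by side. The 5 highest members were KIF5B, KIF20A, KIF1A, KIF22 and KIF2C, and neighbours in that order overlapped across libraries. That is, 2 transport motors (the ubiquitous KIF5B and the neuronal KIF1A) and 3 spindle or chromosome motors. All 46 members together took 508 to 641 TPM per library (568 ± 56.7 in CR31B and 584 ± 42.2 under DMSO, SD, n = 4 each). The mitotic kinesins summed to 271 ± 37.8 TPM under CR31B and 269 ± 27.3 TPM under DMSO, and the transport kinesins to 260 ± 30.7 and 282 ± 15.3 TPM. Of the 14 mitotic kinesins 12 were tested, of the 19 transport members 15, and of the 13 others 6. KIF1C lay just inside the threshold with a mean of 1.03 TPM, and KIF13B (0.985 TPM) and KIF3B (0.923 TPM) lay just outside it. The other 11 untested genes had means of 0.696 TPM (KIFC3), 0.668 TPM (KIF24), 0.319 TPM (KIF25), 0.229 TPM (KIF4B), 0.188 TPM (KIF6), 0.170 TPM (KIF21B), 0.151 TPM (KIF17 and KIFC2), 0.136 TPM (KIF12), 0.0725 TPM (KIF19) and 0 (KIF2B).

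**Figure D1:**
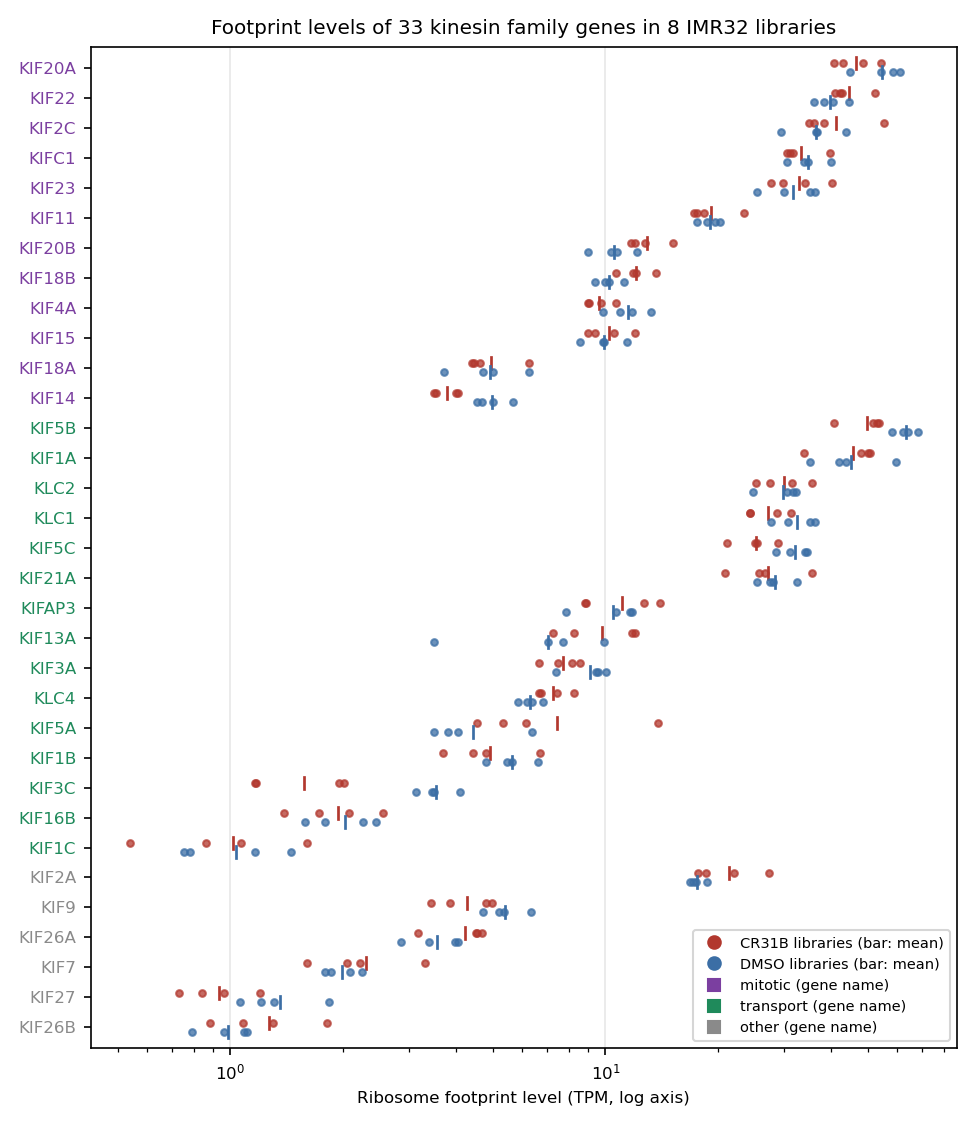
Ribosome footprint level in TPM (log axis) of the 33 tested kinesin family genes, ordered by class and mean; each point is 1 library, the short bars are group means, and the colour of the gene name gives the class. The means run from about the 1 TPM threshold (KIF1C) to KIF5B. Mitotic and transport genes interleave above the lowest mitotic gene (KIF14, mean 4.38 TPM), and only transport and other genes lie below it. KIF3C is the gene whose CR31B points stand farthest from its DMSO points.

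The central question was whether the compound changed kinesin footprints, and whether mitotic and transport motors differed in this. One member passed the test: KIF3C fell, and none rose. That is 1 of 33 members (3.03%), against 7.46% of all genes tested, and 1 of 33 lower against 4.02% of all genes. The test was limma on log2(TPM + 1) with Benjamini-Hochberg adjustment over all 11778 genes at 0.05. In 3 of the 33 tested members (KIF3C, KIF5B and KIF14) the CR31B and DMSO libraries did not overlap, all with CR31B lower. Of all genes tested, 8.14% did not overlap with CR31B lower and 16.2% did not overlap in either direction. The untested KIF12 and KIF17 did not overlap either, with CR31B higher, at means of only 0.136 and 0.151 TPM. The median size of change, regardless of sign, was 0.18 in the kinesins and 0.20 in all tested genes on the log2 scale. Thus the kinesins' share of calls was below that of all genes, and no difference of the family from other genes was tested. With the replicate number as a block, 2 of 33 members passed (KIF3C and KIF5B) against 12.3% of all genes. Some members are described below by their direction in 4 of 4 pairs of libraries with the same replicate number. The share of all genes with the same direction in 4 of 4 pairs was not computed. With 4 libraries a group the smallest two-sided exact permutation p is 0.0286, and all p-values measure the spread between these libraries, which the submitters call biological replicates.

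**Figure D2:**
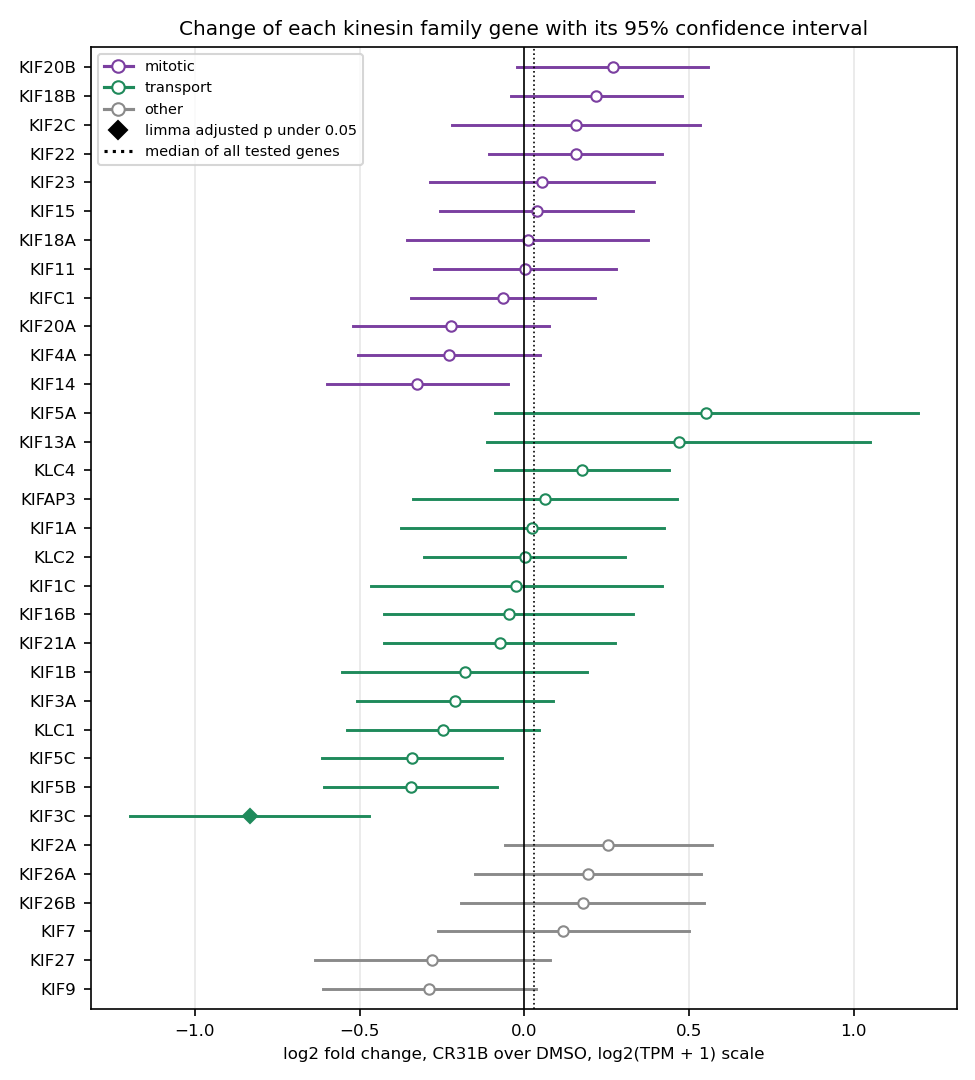
The log2 fold change (CR31B over DMSO, log2(TPM + 1) scale) of each tested member with its 95% confidence interval, grouped and coloured by class; a filled diamond marks an adjusted p under 0.05, open circles did not pass, and the dotted line is the median of all tested genes. KIF3C is the only filled diamond, at -0.83, and most other intervals cross 0.

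Within kinesin-2, the motor of intraflagellar and axonal transport, the KIF3C subunit fell while its partners did not pass the test. KIF3C (ENSG00000084731.15, chr2:25926596-25982749, minus strand) was at 1.16, 2.01, 1.95 and 1.17 TPM in the CR31B libraries (replicates 1 to 4 in order) and at 3.13, 4.09, 3.5 and 3.44 TPM in the DMSO libraries. Every CR31B library lay below every DMSO library. The means were 1.57 ± 0.471 and 3.54 ± 0.401 TPM (SD, n = 4 each), and the log2 fold change was -0.83 (95% confidence interval -1.20 to -0.47, SE 0.16, limma adjusted p = 0.0143, exact permutation p = 0.0286). Because the gene is low, the pseudocount shrinks this change, which was -1.16 with a pseudocount of 0.1. When low genes were left in the test, the call was lost (limma adjusted p = 0.0567). KIF3A, the common partner, was at 7.71 ± 0.844 TPM under CR31B and 9.10 ± 1.18 in DMSO (log2 fold change -0.21, limma adjusted p = 0.382), lower in all 4 replicate pairs but with overlapping groups. KIFAP3, which links the motor to cargo, was at 11.1 ± 2.64 and 10.5 ± 1.81 TPM (0.06, limma adjusted p = 0.879). KIF3B, the alternative partner of KIF3A, was at 0.940 ± 0.158 and 0.905 ± 0.140 TPM and was too low to be tested.

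The make-up of the KIF3 sum differed accordingly. KIF3C made up 10.8%, 21.3%, 18.4% and 11.5% of the summed TPM of KIF3A, KIF3B and KIF3C in CR31B, and 23.4%, 33.3%, 24.3% and 24.3% in DMSO. The share of KIF3B was 9.16% ± 1.17 against 6.67% ± 0.820, and that of KIF3A 75.3% ± 5.49 against 67.0% ± 4.75 (SD, n = 4 each). The 3 shares sum to a fixed total, so a lower KIF3C raises the others. The summed level of KIF3A, KIF3B, KIF3C and KIFAP3 was 21.3 ± 3.14 TPM under CR31B and 24.0 ± 2.65 TPM under DMSO, with overlapping groups.

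Among the conventional kinesin heavy chains, which carry mitochondria, vesicles and mRNA along axons, KIF5B and KIF5C were lower in every replicate pair and KIF5A was higher in every pair, and none of the 3 passed the test. KIF5B (ENSG00000170759.11, chr10:32009010-32056431, minus strand), the ubiquitous heavy chain, was at 53.6, 40.8, 53.0 and 51.6 TPM under CR31B and at 64.2, 58.3, 62.3 and 68.0 TPM under DMSO. The groups did not overlap, and CR31B replicate 2 was the lowest library. The means were 49.8 ± 6.03 and 63.2 ± 4.04 TPM, with a log2 fold change of -0.35 (95% confidence interval -0.61 to -0.08, SE 0.12, limma adjusted p = 0.110, exact permutation p = 0.0286). With the replicate block KIF5B passed, at a limma adjusted p of 0.0491, and it also passed when libraries were centred on the median of protein-coding genes (0.0378).

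KIF5C (ENSG00000168280.18, chr2:148875250-149026759, plus strand), a neuronal heavy chain, is described because it is the other member of the trio with a similar difference, a choice made after its values were seen. It was at 25.4, 21.1, 28.9 and 25.1 TPM under CR31B and at 34.0, 28.6, 31.1 and 34.5 TPM under DMSO, and CR31B replicate 3 overlapped the lowest DMSO library. Its log2 fold change was -0.34 (95% confidence interval -0.61 to -0.07, SE 0.12, limma adjusted p = 0.127, exact permutation p = 0.0571), and it passed under quantile normalization (limma adjusted p = 0.0474). With the replicate block KIF5C did not pass (limma adjusted p = 0.0675). KIF5A (ENSG00000155980.13, chr12:57549998-57586632, plus strand), the neuronal heavy chain linked to hereditary motor neuron disease, was at 5.32, 6.15, 13.8 and 4.55 TPM under CR31B and at 4.04, 3.80, 6.38 and 3.48 TPM under DMSO. Replicate 3 was the highest library of both groups, and the groups overlapped. The log2 fold change was 0.55 (95% confidence interval -0.09 to 1.19, SE 0.29, limma adjusted p = 0.283, exact permutation p = 0.171), and it was 0.25 without CR31B replicate 3. With the replicate block the SE of KIF5A was 0.15 and it lay just outside the threshold (limma adjusted p = 0.0532). KIF5A made up 8.83% ± 3.99 of the summed KIF5 level in CR31B and 4.46% ± 1.35 in DMSO, KIF5B 60.6% ± 3.86 and 63.4% ± 0.936, and KIF5C 30.6% ± 0.457 and 32.1% ± 0.964 (SD, n = 4 each). The KIF5 sum itself was 84.4, 68.1, 95.7 and 81.3 TPM under CR31B and 102, 90.7, 99.7 and 106 TPM under DMSO, and CR31B replicate 3 lay within the DMSO range.

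The light chains, which join KIF5 to its cargo, did not pass the test. KLC2 was at 29.9 ± 4.60 TPM under CR31B and 29.8 ± 3.38 TPM under DMSO, with a log2 fold change of 0.0015 (95% confidence interval -0.30 to 0.31). KLC1 was at 27.2 ± 3.44 and 32.4 ± 3.97 TPM (-0.25, limma adjusted p = 0.288) and was lower in 4 of 4 pairs. KLC4 was at 7.26 ± 0.734 and 6.30 ± 0.419 TPM (0.17, limma adjusted p = 0.418) and was higher in 4 of 4 pairs. Their sum was 64.3 ± 2.15 TPM under CR31B and 68.5 ± 3.82 TPM under DMSO (SD, n = 4 each).

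**Figure D3:**
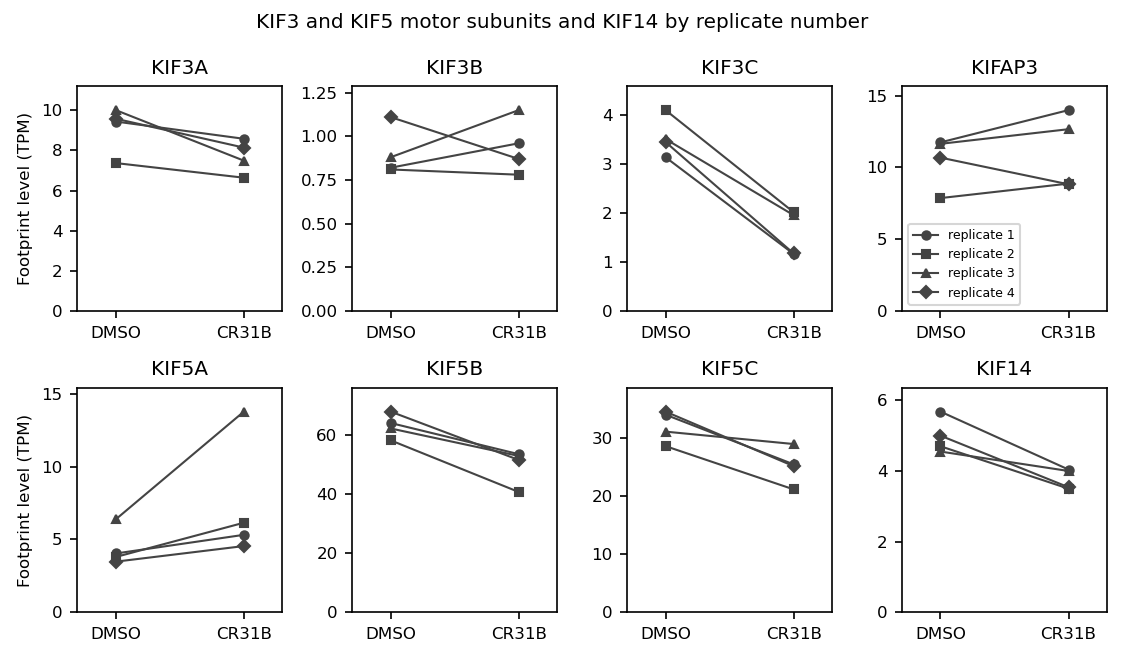
Footprint levels in TPM (each axis starts at 0) of the kinesin-2 subunits KIF3A, KIF3B, KIF3C and KIFAP3, the heavy chains KIF5A, KIF5B and KIF5C, and KIF14; each line joins the DMSO and CR31B libraries with the same replicate number. All 4 lines slope down for KIF3C, KIF5B, KIF5C, KIF14 and KIF3A and up for KIF5A, where replicate 3 stands highest.

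The kinesin-3 motors, which carry synaptic vesicle precursors and dense-core vesicles, did not pass the test. KIF1A, the neuronal member, was at 50.7, 33.8, 47.9 and 50.2 TPM under CR31B and at 59.6, 43.9, 35.1 and 41.9 TPM under DMSO. The groups overlapped, with CR31B replicate 2 lowest and DMSO replicate 1 highest. The log2 fold change was 0.02 (95% confidence interval -0.38 to 0.42, SE 0.18, limma adjusted p = 0.954, exact permutation p = 0.971). KIF13A, an endosome and melanosome motor, was at 9.82 ± 2.42 TPM under CR31B and 7.05 ± 2.67 TPM under DMSO (0.47, limma adjusted p = 0.315), higher in 4 of 4 pairs, and the log2 fold change was 0.21 without DMSO replicate 1. KIF1B was at 4.91 ± 1.28 and 5.63 ± 0.739 TPM, KIF16B at 1.93 ± 0.497 and 2.02 ± 0.400 TPM, and KIF1C at 1.02 ± 0.445 and 1.04 ± 0.334 TPM. KIF21A, a kinesin-4 motor that restrains microtubule growth, was at 27.2 ± 6.16 and 28.3 ± 2.96 TPM (-0.07, limma adjusted p = 0.828).

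None of the 12 mitotic kinesins tested passed the test, and 8 had a log2 fold change above 0. Of all 11778 genes tested, 6374 had one above 0. Among those 8, KIF11, KIF15, KIF18A and KIF23 changed sign when some single libraries were left out. The confidence intervals of the 12 ran from -0.60 to 0.56 in all. In a whole culture, a change in the number of dividing cells and a change in footprints per dividing cell cannot be told apart.

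Among the chromosome and spindle motors, KIF14 (ENSG00000118193.12, chr1:200551497-200620734, minus strand), which acts with citron kinase in cytokinesis, had the lowest log2 fold change. It was at 4.04, 3.5, 4.00 and 3.54 TPM under CR31B and at 5.68, 4.70, 4.55 and 5.00 TPM under DMSO, without overlap. The log2 fold change was -0.33 (95% confidence interval -0.60 to -0.05, SE 0.12, limma adjusted p = 0.146, exact permutation p = 0.0286). KIF20A, the midzone motor that brings the chromosomal passenger complex to the spindle midzone, was at 54.3, 48.8, 40.7 and 43.1 TPM under CR31B and at 60.9, 54.4, 44.9 and 58.5 TPM under DMSO. It was lower in CR31B in all 4 pairs, but the groups overlapped (log2 fold change -0.22, SE 0.13, 95% confidence interval -0.52 to 0.08, limma adjusted p = 0.358, exact permutation p = 0.143). KIF20B, a cytokinesis motor of the same subfamily, had the highest log2 fold change of the class. It was at 15.2, 11.97, 12.8 and 11.7 TPM under CR31B and at 10.7, 12.2, 8.96 and 10.4 TPM under DMSO, so that DMSO replicate 2 overlapped the CR31B libraries (0.27, SE 0.13, 95% confidence interval -0.02 to 0.56, limma adjusted p = 0.252, exact permutation p = 0.0857).

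KIF22, a chromokinesin that pushes chromosome arms outward, was at 52.5, 40.8, 42.4 and 42.7 TPM under CR31B and at 44.6, 38.3, 36.0 and 40.4 TPM under DMSO. CR31B was higher in all 4 pairs, with overlapping groups (0.16, SE 0.12, 95% confidence interval -0.11 to 0.42, limma adjusted p = 0.474, exact permutation p = 0.171), and the value was 0.08 without CR31B replicate 1. KIF11, the bipolar motor that drives spindle poles apart and the target of antimitotic drugs, was at 23.5, 18.4, 17.6 and 17.2 TPM under CR31B and at 19.7, 17.6, 18.7 and 20.2 TPM under DMSO. Apart from CR31B replicate 1 these values lay within a narrow band (0.0015, SE 0.12, 95% confidence interval -0.27 to 0.28, limma adjusted p = 0.995, exact permutation p = 0.971). KIFC1, the minus-end motor that clusters extra centrosomes, was at 39.7, 30.5, 31.6 and 31.0 TPM under CR31B and at 39.9, 30.5, 33.9 and 34.6 TPM under DMSO. Replicate 1 was the highest in both groups, and the groups overlapped although CR31B was lower in all 4 pairs (-0.06, SE 0.13, 95% confidence interval -0.34 to 0.22, limma adjusted p = 0.809, exact permutation p = 0.571).

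The remaining mitotic members had limma adjusted p-values from 0.295 to 0.979. The microtubule depolymerase KIF2C was at 41.2 ± 9.64 TPM under CR31B and 36.5 ± 5.85 TPM under DMSO, and KIF23, the motor of the centralspindlin complex, at 32.9 ± 5.59 and 31.6 ± 4.98 TPM. KIF18B, which trims astral microtubules, was at 12.05 ± 1.23 and 10.2 ± 0.766 TPM and was higher in 4 of 4 pairs. The chromokinesin KIF4A was at 9.61 ± 0.791 and 11.5 ± 1.43 TPM and was lower in 4 of 4 pairs. KIF15, which can stand in for KIF11, was at 10.2 ± 1.33 and 9.93 ± 1.17 TPM, and KIF18A, which damps chromosome movement, at 4.94 ± 0.890 and 4.93 ± 1.04 TPM (SD, n = 4 each).

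Of the 6 tested members outside both classes none passed the test. KIF2A, a microtubule depolymerase that the class lists used here leave outside the mitotic kinesins, was at 22.1, 18.5, 27.4 and 17.6 TPM under CR31B and at 18.7, 17.4, 16.8 and 17.2 TPM under DMSO. It was higher in all 4 pairs, mostly in replicates 1 and 3 (0.26, SE 0.14, 95% confidence interval -0.06 to 0.57, limma adjusted p = 0.314, exact permutation p = 0.0857), and the log2 value was 0.135 without CR31B replicate 3. KIF9, a kinesin of motile cilia, was at 4.79, 3.43, 3.86 and 4.98 TPM under CR31B and at 5.21, 4.72, 6.35 and 5.36 TPM under DMSO. It was lower in all 4 pairs, and CR31B replicates 1 and 4 overlapped the lowest DMSO library (-0.29, SE 0.15, 95% confidence interval -0.61 to 0.03, limma adjusted p = 0.267, exact permutation p = 0.0857). KIF7, a regulator of Hedgehog signalling, was at 2.3 ± 0.725 TPM under CR31B and 1.99 ± 0.208 TPM under DMSO, and KIF27, its relative, at 0.933 ± 0.202 and 1.35 ± 0.335 TPM and lower in 4 of 4 pairs. KIF26A was at 4.23 ± 0.713 and 3.57 ± 0.564 TPM and KIF26B at 1.27 ± 0.400 and 0.988 ± 0.148 TPM, both higher in 4 of 4 pairs.

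Set against each other, the classes had medians near 0 on the log2 scale, with a wide spread among the transport members. The median log2 fold change was 0.02 for the mitotic kinesins, with -0.01 under quantile normalization, and with 1 library left out it ran from -0.07 (without CR31B replicate 1) to 0.10 (without DMSO replicate 1), also below 0 without DMSO replicate 3. It was -0.05 for the transport kinesins, and with 1 library left out it ran from -0.14 (without CR31B replicate 3) to 0.04 (without CR31B replicate 2). It was 0.15 for the other 6. For all 33 members it was 0.0015 and for all tested genes 0.029. Transport members ranged from -0.83 (KIF3C) to 0.55 (KIF5A) and mitotic members from -0.33 (KIF14) to 0.27 (KIF20B). No test was made of the classes, whose members share the same 8 libraries.

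Library by library, the mitotic median, relative to the DMSO mean, was 0.30, -0.08, -0.10 and -0.07 in CR31B and 0.16, -0.06, -0.12 and 0.02 in DMSO. Replicate 1 was the highest library in both groups, and CR31B replicate 1 stood farthest above the rest. CR31B replicate 1 had the highest protein-coding share of TPM (61.3%) and DMSO replicate 1 the next highest (58.4%). After rescaling over protein-coding genes their values were 0.18 and 0.10, still the highest of their groups. The transport median was -0.07, -0.39, 0.09 and -0.14 in CR31B and 0.04, -0.15, -0.01 and 0.07 in DMSO. The transport median minus the mitotic median was -0.37, -0.31, 0.19 and -0.06 in CR31B and -0.12, -0.08, 0.11 and 0.05 in DMSO, so CR31B lay lower in replicates 1, 2 and 4 and higher in replicate 3. The means of that difference, -0.14 ± 0.25 and -0.01 ± 0.11 (SD, n = 4 each), lay closer together than the spread between CR31B libraries.

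**Figure D4:**
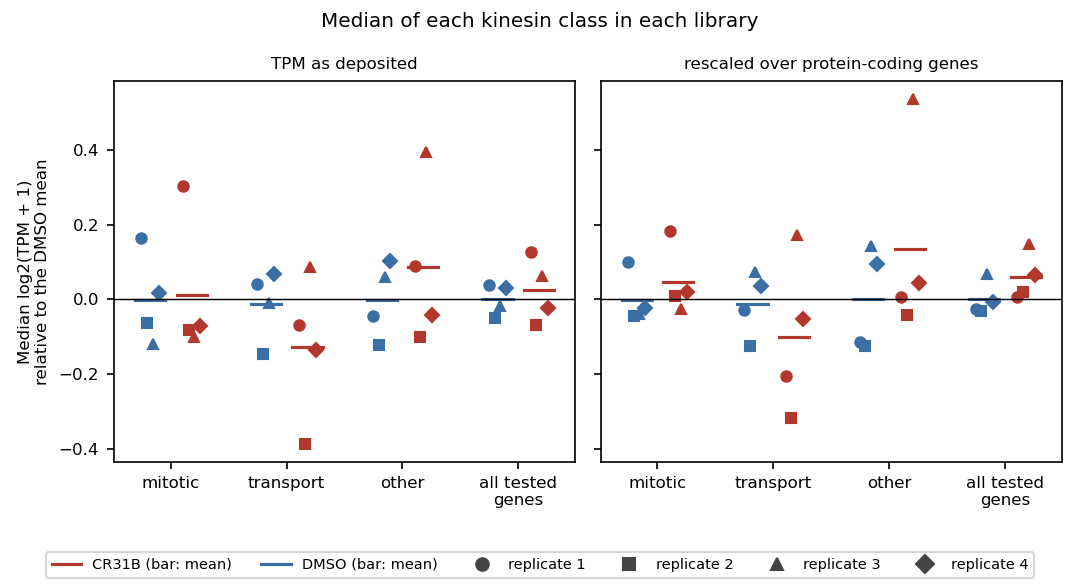
Median of each kinesin class and of all tested genes in each library, as log2(TPM + 1) relative to the DMSO mean, on TPM as deposited (left) and rescaled over protein-coding genes (right); marker shapes give replicate numbers and bars the group means. The groups overlap in each class on both scales, and CR31B replicate 1 is the highest mitotic point in both panels.

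The leaders shown at the start were then set beside the footprint changes. Across the 32 tested members with an annotated leader, the longest purine run and the log2 fold change had a Spearman coefficient of -0.40 (Pearson -0.50), and without KIF3C these were -0.34 and -0.27 (n = 31). Over 10160 tested protein-coding genes the Spearman coefficient was -0.09. The purine percentage of the whole leader had a Spearman coefficient of -0.06 in the kinesins (Pearson -0.04) and -0.06 over coding genes. For leader GC percentage these Spearman coefficients were -0.003 and -0.08, and for coding length 0.13 and 0.08. Leader length had Spearman coefficients of -0.41 over the 33 members and -0.07 over 10334 genes, with a missing leader counted as 0 nt. Without KIF3C and KIF26A, which has no annotated leader, the coefficient was -0.31 (n = 31). Run and leader length are themselves related (Spearman 0.44 in the kinesins and 0.64 in coding genes), so these 2 features cannot be separated in the family. All members share the 8 libraries, and no p is given. The median longest run was 8 nt both in the kinesins and in all tested coding genes. The median leader was 228 nt in the kinesins and 201 nt in coding genes, again with a missing leader counted as 0 nt.

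Members with long runs did not move alike. KIF3C with 18 nt fell, KIF5B with 14 nt was at -0.35, and KIFC1 with 15 nt was at -0.06, while KIF5C, at -0.34, had 7 nt and KIF14, at -0.33, had 9 nt. KIF26B, whose run of 11 nt came next in length after that of KIF5B, was at 0.18. The runs of KIFC1, KIF26B, KIF5C and KIF14 each occurred in the leaders of 1 of 2 coding transcripts considered. The KIF3C run occurred in 3 of 4 and the KIF5B run in 1 of 1. Of the exon bases of KIFC1, 12.7% overlap another gene on the opposite strand. A run of 18 nt or more was found in 4.27% of tested coding genes with a leader (434 genes), searching the sense strand of the leader only, and 11.98% of these were called lower and 5.99% higher. Of the 728 genes with a longest run of 14 to 17 nt, 7.28% were called lower and 6.32% higher. Of those with under 8 nt, 2.35% were called lower and 2.57% higher, against 4.19% and 3.48% of all 10160, so calls in both directions were more frequent among the longer runs.

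**Figure D5:**
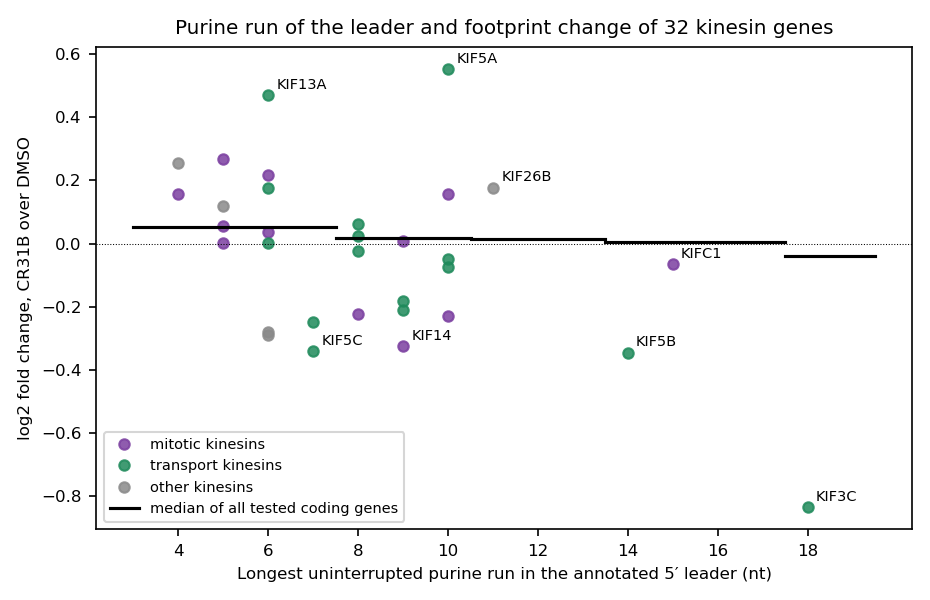
Longest uninterrupted purine run in the annotated 5′ leader (nt) against the log2 fold change (CR31B over DMSO) of 32 kinesin family genes, coloured by class; black steps are the medians of all tested protein-coding genes in 5 ranges of run length. KIF3C lies alone at 18 nt and -0.83, and KIFC1 at 15 nt lies near 0.

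Proteins that work with kinesins were examined from a list of 40 cargo adaptors and regulators and 13 mitotic partners. Of the 33 tested adaptors and regulators 5 fell and none rose, and of the 13 mitotic partners 1 fell and none rose. This is 6 of 46 (13.04%) against 7.46% of all tested genes, with a median log2 fold change of -0.02, and the list was not tested against other genes. Log2 fold changes of the adaptors and regulators ran from -0.82 to 1.04 with a median of 0.02. MAPRE1, the plus-end protein EB1, fell to 64.3 ± 7.23 TPM with CR31B from 98.4 ± 6.79 TPM with DMSO (log2 fold change -0.61, SE 0.11, limma adjusted p = 0.0112). DPYSL2 (CRMP2), which links tubulin and other cargo to KIF5, fell from 90.5 ± 12.6 to 54.2 ± 8.97 TPM (-0.73, SE 0.15, limma adjusted p = 0.0152). CLSTN1 (calsyntenin), a membrane cargo receptor for light chains, fell from 12.3 ± 1.92 to 7.40 ± 1.09 TPM (-0.66, SE 0.14, limma adjusted p = 0.0211). MAP7D1, a microtubule protein that recruits KIF5, fell from 18.1 ± 1.85 to 11.98 ± 1.70 TPM (-0.56, SE 0.13, limma adjusted p = 0.0278). APBA1 (Mint1), an adaptor of KIF17, fell from 6.86 ± 1.64 to 3.47 ± 1.11 TPM with overlapping groups (-0.82, SE 0.22, limma adjusted p = 0.0478, and 0.0655 with the replicate block). The CR31B and DMSO libraries did not overlap in MAPRE1, DPYSL2, CLSTN1 and MAP7D1. Over the 17 alternatives MAPRE1 passed in 17, DPYSL2 in 15, CLSTN1 in 12, MAP7D1 in 10 and APBA1 in 8. The count of 6 was 3 without CR31B replicate 4, 2 without DMSO replicate 1 and 1 without DMSO replicate 4.

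The highest fold change of the list did not pass the test. KANK2, of a family of cortical proteins that bind KIF21A, was at 31.5 ± 10.1 TPM under CR31B and 15.1 ± 6.61 TPM under DMSO with overlapping groups (1.04, SE 0.30, limma adjusted p = 0.0600). FEZ2, a relative of the kinesin-1 adaptor FEZ1, was at 8.06 ± 1.49 and 5.21 ± 0.459 TPM without overlap (0.53, SE 0.15, limma adjusted p = 0.0561). With the replicate block both passed (limma adjusted p = 0.00465 for KANK2 and 0.0374 for FEZ2), and then 7 of 46 partners passed, 5 lower and 2 higher, against 12.3% of all genes. Both genes were named after their values were seen.

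CENPE, the kinetochore kinesin that the naming rule leaves out of the family, was at 8.62 ± 1.72 TPM under CR31B and 6.56 ± 0.925 TPM under DMSO (0.34, limma adjusted p = 0.228). PRC1, the bundling protein that KIF4A and KIF20A meet at the midzone, was at 229 ± 26.1 and 241 ± 28.8 TPM (-0.07, but 0.03 under quantile normalization), and RACGAP1, the partner of KIF23 in centralspindlin, at 93.9 ± 10.6 and 86.1 ± 3.81 TPM (0.12), neither past the test. These 3 were named for their direct ties to members after values were seen. Of 20 proliferation genes listed for comparison with the mitotic kinesins, 1 rose and 1 fell, with a median log2 fold change of -0.08. That is 10.0% called, against 7.46% of all tested genes, and the list was not tested against other genes. MKI67 rose (9.48 ± 1.16 TPM under CR31B against 6.35 ± 0.643 in DMSO, 0.51, limma adjusted p = 0.0385) and CDK1 fell (31.96 ± 3.09 against 47.5 ± 6.68 TPM, -0.55, limma adjusted p = 0.0304), both named after their values were seen. They passed in 10 and 11 of the 17 alternatives. With the replicate block AURKB, a mitotic kinase, passed too (122 ± 28.9 TPM under CR31B against 154 ± 26.8, -0.34, limma adjusted p = 0.0413, and 0.271 without the block). This made 3 of 20 with the block, against 12.3% of all genes.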

How the data were processed

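Ribosome-protected fragments of 28 to 30 nt were measured in 8 IMR32 libraries, 4 after CR31B and 4 after DMSO. The authors deposited 1 table of TPM for 60651 genes, and the table was used as deposited. Per the submitters' processing notes, cutadapt 3.2, Bowtie2 2.3.4.1, RSEM 1.2.28, STAR 2.7.1a and DESeq2 1.32.0 and the build hg38/GRCh38 were used, with no role given. The annotation release, strand setting and treatment of multimapping reads are not given in the sources used here. The labels name 2 sequencing runs without saying which library was in which, so run effects could not be computed. TPM sums to a fixed total per library and keeps no depth, so the precision rests on the spread between libraries.

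Symbols were found for 60481 gene identifiers, and GENCODE release 29 types for 58405, ignoring versions. Genes whose mean reached 1 TPM were fitted as log2(TPM + 1) with limma 3.58.1 (lmFit, eBayes with a trend) in R 4.3.3, with treatment as the only term and Benjamini-Hochberg adjustment at 0.05. This scale understates changes of low genes. The fit was tested on simulated data. Two-sided exact permutation tests ran over the 70 assignments of libraries. Leaders, coding sequences and P-loops were read from 1 coding transcript per gene. Other steps used Python 3.11.15, pandas 2.3.3, NumPy 2.4.6 and matplotlib 3.10.9.

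Members, classes and lists were chosen with earlier results of these data known. All tested members were named with group means. Full values were given for members past the threshold, the 2 highest of each class, the largest rise and fall of each class, and KIF11, KIFC1, KIF1A and KIF5B, with KIF5C added after its values were seen, and partners past the threshold were named, except for an item that is not reported here. Alternatives changed the pseudocount, low-value filter, scaling, variance trend and replicate block and left out each library in turn. One chosen after seeing the data left out KIF4A, KIF27 and KLC1, which share over 30% of their 28-base stretches with other genes. Replicate numbers come from the labels, which do not say what they share. After removal of group means, libraries with the same number correlated at 0.333, 0.324, 0.301 and 0.105 across genes, and those with different numbers at -0.206 to 0.134, so the numbers were taken as pairs in the block.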

Additional observations from a re-analysis of the deposited data

Results flagged for a closer look

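In 72 groups of 4 libraries (33 members and 3 class medians, in CR31B and in DMSO), 8 had 1 library that stood far from the other 3 by Dixon's criterion, where chance gives about 1 in 20, or 3.6. All 8 were CR31B groups. CR31B replicate 1, the library with the highest protein-coding share of TPM, was high in 4 mitotic kinesins. KIF2C was at 55.5 TPM there and at 35.0 to 38.2 TPM in the other CR31B libraries, and KIF22 at 52.45 TPM against 40.8 to 42.7 TPM. KIFC1 was at 39.66 TPM against 30.5 to 31.6 TPM, and KIF18A at 6.27 TPM against 4.4 to 4.63 TPM. In the same 4 genes DMSO replicate 1 was the highest DMSO library, though not flagged. It was at 43.7 TPM in KIF2C, 44.6 TPM in KIF22, 39.9 TPM in KIFC1 and 6.25 TPM in KIF18A. The mitotic median of that library (log2 scale, relative to DMSO) was 0.30, while the others lay between -0.10 and -0.07. CR31B replicate 2 was low in KIF5B (40.79 TPM against 51.6 to 53.6 TPM), KIF1A (33.77 TPM against 47.9 to 50.7 TPM) and KIF26A (3.17 TPM against 4.52 to 4.70 TPM). DMSO replicate 2 was the lowest DMSO library in KIF5B (58.3 TPM) and KIF26A (2.85 TPM), but not in KIF1A. The genes share libraries, so these deviations are not independent.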

How the results depend on the processing

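KIF3C passed the threshold in 15 of the 16 alternatives that tested it, with limma adjusted p-values from 0.0121 to 0.0567. The exception was testing all genes without a low-value filter, where 0 kinesins passed. At a minimum of 5 TPM KIF3C was not tested and 0 passed. The kinesin count was 2 under quantile normalization (KIF3C and KIF5C), 2 when centred on the protein-coding median (KIF3C and KIF5B) and 2 with the replicate block (KIF3C and KIF5B), which changed no other kinesin call. It was 1 without any single library. Over all genes, 442 passed without a filter, 1453 with the replicate block, and 404 (without DMSO replicate 4) to 785 (without DMSO replicate 3) when 1 library was left out, with 516 without CR31B replicate 4, 502 without DMSO replicate 1 and 514 without DMSO replicate 2. Partners past the threshold numbered 1 without a filter and 1 (without DMSO replicate 4) to 5 with a library left out. With the replicate block they numbered 7, having lost APBA1 and gained KANK2 and FEZ2. Of the proliferation genes 3 passed with the block (AURKB was gained), 0 passed without a filter, and 0 to 2 with a library left out.

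Among the fold changes of single kinesins under these alternatives, 36 changed sign, in 12 genes, none past the threshold on either side. Under quantile normalization these were KIF11 (-0.033), KIF18A (-0.032), KLC2 (-0.038) and KIF1A (-0.0022), and with centring KIF11 (-0.019), KIF18A (-0.010) and KLC2 (-0.019). With 1 library left out, log2 fold changes ranged from -0.096 to 0.047 in KIF11, -0.034 to 0.10 in KIF15, -0.14 to 0.046 in KIF16B, -0.094 to 0.11 in KIF18A, -0.085 to 0.16 in KIF1A, -0.092 to 0.097 in KIF1C, -0.21 to 0.040 in KIF21A, -0.044 to 0.13 in KIF23, -0.019 to 0.22 in KIF7, -0.057 to 0.15 in KIFAP3, -0.15 to 0.0021 in KIFC1 and -0.084 to 0.078 in KLC2. The partner PRC1 was at 0.032 under quantile normalization and ranged from -0.15 to 0.0057 with 1 library left out. Class medians moved by less than 1 SD between libraries. The cause of these changes was not tested, apart from the filter, which alters how many genes share the adjustment. Depth is unknown, so the counting error of low members such as KIF3C is too.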
